A study of Mus musculus with 18 samples.

Results

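Immediate early genes are the genes a cell switches on within minutes of a stimulus, and 10 of them were followed here in sorted mouse heart muscle cells: Fos, Fosb, Jun, Junb, Egr1, Egr2, Atf3, Ier2, Klf4 and Klf6. The genes were taken by name, and all 10 were among the 12048 genes listed for every library. The mice were Mlc2vcre:R26REYFP: Cre recombinase under the control of Mlc2v, the ventricular myosin light chain gene, releases a yellow fluorescent protein from the Rosa26 locus in cardiomyocytes. All groups carried these alleles, and none received a treatment that the labels name. Mononucleated (1 nucleus) and binucleated (2 nuclei) cells were separated by FACS at E18.5 before birth, at P7 after birth and in the adult, for which the labels give no age in weeks. Each of the 6 groups had 3 libraries, 18 in all, and the comparison of the classes asks what sets cells of different proliferative capacity apart. The labels do not say whether replicates were separate animals or pools, so p-values measure only how far these libraries spread, which may be technical.

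These genes share a mode of control. Their promoters are held ready by factors that are already in the cell, such as serum response factor with its ternary complex partners and the cyclic AMP response element binding protein, and MAP kinases turn these factors on without new protein synthesis. The transcripts are short-lived, and their products are themselves mostly transcription factors: Fos and Jun proteins pair as AP-1, Egr1 and Egr2 are zinc finger activators, Atf3 is a stress-induced member of the basic leucine zipper family, and Klf4 and Klf6 are Krüppel-like factors. In the heart they are known to answer to stretch, ischaemia and hypertrophic hormones. They are also known to be switched on while a tissue is digested into single cells, which is why they are often read as a mark of cell preparation. The labels do not describe the digestion used at each age and no undissociated heart was analysed here, so the level in the heart and the change during preparation cannot be told apart in what follows.

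Counts summed to between 14833334 and 22690952 per library. Levels are given as normalised counts, that is, counts recovered from the deposited log2 values and scaled to the average library. E18.5 binucleated replicate 1 had the lowest total and the most genes at 0 counts (255 of 12048, against 53 to 200 in the other 17 libraries), and results that rest on it are given with and without it. The 14 cardiomyocyte markers, among them Myl2, Tnnt2 and Ttn, were present in every library and summed to between 811788 and 1251041 normalised counts. The summed markers of fibroblasts (12 genes) ran from 2099 to 29492, of endothelium (14 genes) from 338 to 2938 and of leukocytes (6 genes) from 45.3 to 749. A change in the share of another cell type and a change of RNA per cell cannot be told apart in such bulk samples.

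Because several of the 10 genes moved together, the promoters of 5 of them are shown. These 5 hold the core TGACG of the cyclic AMP response element. They include Fosb, whose means were highest at E18.5, while those of the others were highest in the adult. Jun and Klf6, which lack that core in their windows, are not shown, nor is Klf4, which holds it. RefSeq start sites (build GRCm38.p6) gave windows for 8 of the 10 genes, 12 windows in all, for every listed gene but Egr1 and Ier2. Each line gives the 250 bases before the start site, 5′ to 3′ on the gene's own strand. Fos lies on the plus strand at chr12:85473640-85473889 and Fosb on the minus strand at chr7:19310046-19310295. Junb lies on the minus strand at chr8:84978749-84978998, Atf3 on the minus strand at chr1:191183334-191183583, and the Egr2 window shown on the plus strand at chr10:67537619-67537868. Capitals mark the core of the cyclic AMP response element (TGACG, or CGTCA on the other strand), the CArG box to which serum response factor binds (in Egr2) and a TATAAA box (in Fos).
Fos: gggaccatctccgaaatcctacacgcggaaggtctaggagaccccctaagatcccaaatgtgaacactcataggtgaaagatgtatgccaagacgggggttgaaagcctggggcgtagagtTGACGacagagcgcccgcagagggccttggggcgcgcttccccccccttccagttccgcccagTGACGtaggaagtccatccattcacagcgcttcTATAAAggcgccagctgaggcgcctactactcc
Fosb: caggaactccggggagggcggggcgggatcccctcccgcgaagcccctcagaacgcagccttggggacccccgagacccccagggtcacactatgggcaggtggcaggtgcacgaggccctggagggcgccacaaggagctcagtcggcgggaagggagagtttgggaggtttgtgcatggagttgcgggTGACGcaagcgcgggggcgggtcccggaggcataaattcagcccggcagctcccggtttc
Junb: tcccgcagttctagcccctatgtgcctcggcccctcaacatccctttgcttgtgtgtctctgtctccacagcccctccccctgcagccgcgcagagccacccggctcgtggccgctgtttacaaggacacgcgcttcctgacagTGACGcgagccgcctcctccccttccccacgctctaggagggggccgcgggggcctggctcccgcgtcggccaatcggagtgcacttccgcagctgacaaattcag
Atf3: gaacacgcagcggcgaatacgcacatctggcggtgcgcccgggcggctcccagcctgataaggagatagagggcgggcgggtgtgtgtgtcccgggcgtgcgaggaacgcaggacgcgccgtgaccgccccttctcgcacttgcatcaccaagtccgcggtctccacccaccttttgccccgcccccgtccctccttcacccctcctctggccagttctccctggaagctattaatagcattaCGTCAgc
Egr2: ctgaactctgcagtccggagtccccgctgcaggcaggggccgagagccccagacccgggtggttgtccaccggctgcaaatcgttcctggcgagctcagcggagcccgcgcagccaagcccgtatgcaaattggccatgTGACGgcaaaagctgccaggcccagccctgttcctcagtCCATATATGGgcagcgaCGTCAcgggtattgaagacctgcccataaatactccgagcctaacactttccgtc
TGACG on either strand was found in 6 of the 8 genes with a window (Fos, Fosb, Junb, Atf3, Egr2 and Klf4) and in 8 of their 12 windows, against 17.77% of all 32851 RefSeq windows of this length. Several of these windows are Egr2 windows that overlap and hold the same sites, so they are not separate matches. Fos holds it at 129 to 125 and at 66 to 62 bases before the start site, and Atf3 at 7 to 3 bases before it. The full palindrome TGACGTCA, which contains TGACG, was in 0 of the 8 genes and in 1.55% of all windows, and the AP-1 site TGANTCA was in 0 of 8 and in 6.75%. A CArG box was found only in Egr2 among the 8, in 4 of its windows, and in 1.47% of all windows. The Egr2 window that starts at 67537316 holds CCTTTTTTGG and does not overlap the others with a box. Those others overlap one another and share CCATATATGG. TATAAA was found only in Fos (12.37% of all windows), while the GC box GGGCGG was in 7 of the 8 genes, all but Junb (32.74%). These are letter matches in a short window and say nothing of binding, and the 10 genes were not chosen for them.

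The 10 genes together took 0.326% to 0.557% of all counts in the 6 adult libraries. They took 0.096% to 0.326% in the E18.5 libraries and 0.093% to 0.236% at P7. Fos alone made up 26.4% to 39.7% of that sum. Scaled to exon length, Fos was also the most abundant of the 10 in each group, at 5086 to 13142 normalised counts per kb, above 98.5% to 99.4% of all genes. At E18.5 and P7 Egr2 was the least abundant, with group means of 1.79 to 17.6 normalised counts per kb, above only 3.1% to 16.0% of all genes. In the adult it reached 66.8 and 85.7 per kb in mononucleated and binucleated cells, and Fosb (41.8 and 19.0) and Klf4 (39.8 and 29.8) stood lower.

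**Figure D1:**
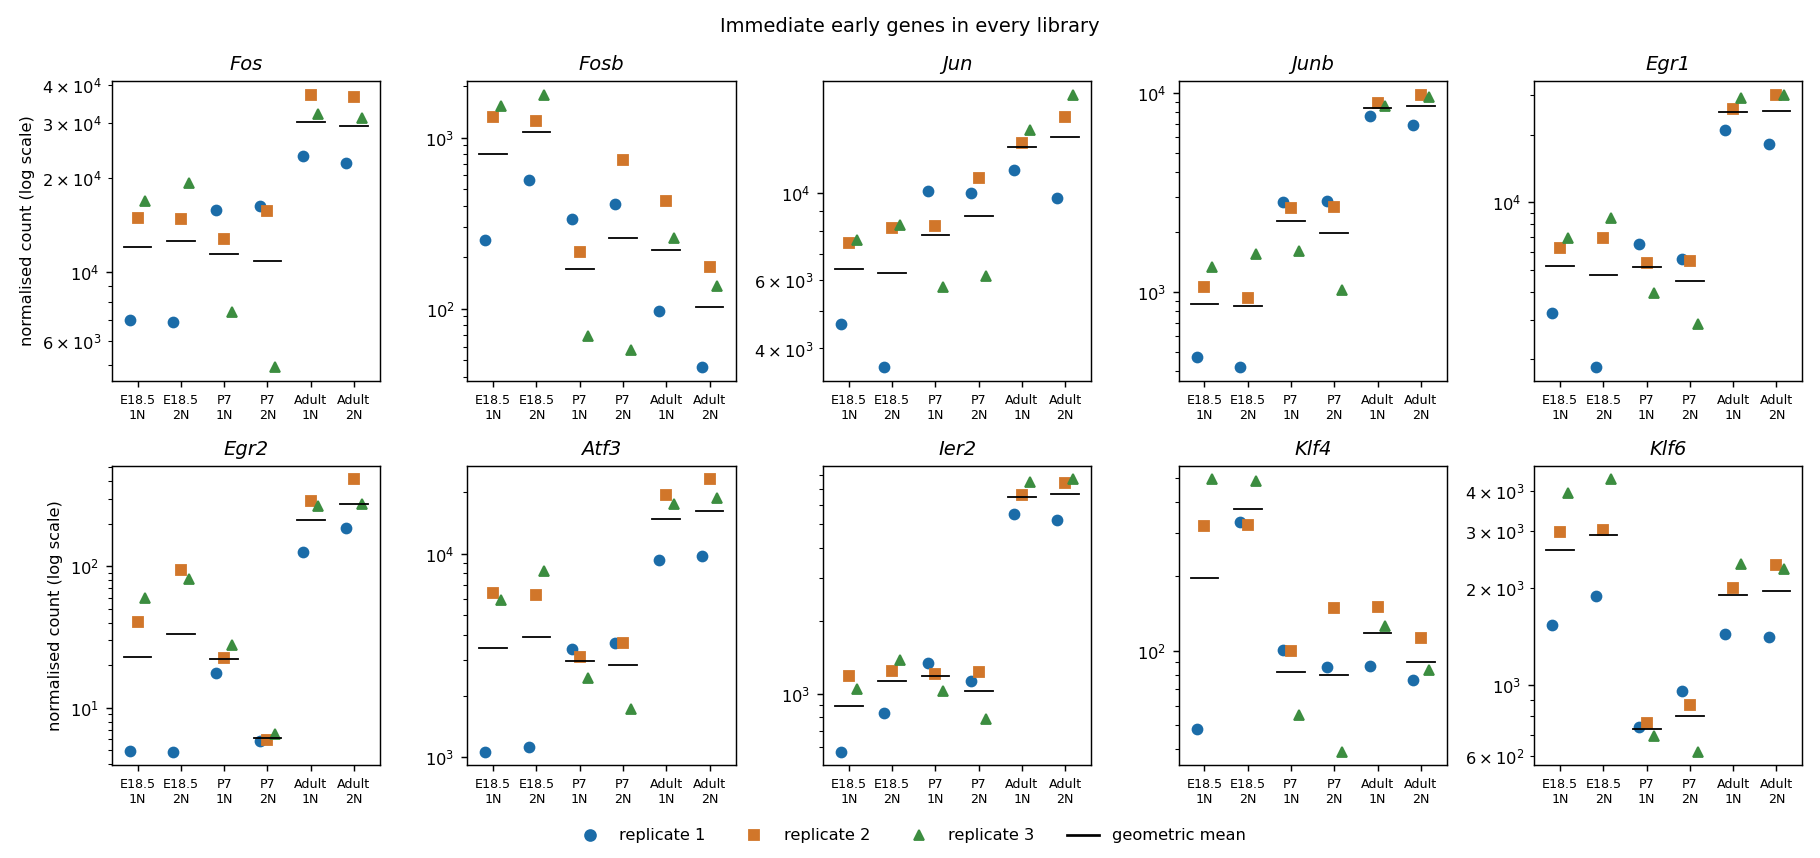
Normalised counts (log scale) of the 10 genes in each of the 18 libraries, by group (1N mononucleated, 2N binucleated); symbols give the replicate number and bars the geometric mean of 3 libraries. The adult means are highest for 7 genes, Fosb, Klf4 and Klf6 have their highest means at E18.5, and 1 replicate number tends to be low in both classes of an age.

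Fos was high at every age and highest in the adult. In mononucleated cells, replicates 1, 2 and 3 held 6976, 14886 and 16831 normalised counts at E18.5, 15762, 12701 and 7425 at P7, and 23497, 37112 and 32118 in the adult. In binucleated cells the values of Fos were 6890, 14808 and 19237, then 16307, 15644 and 4930, then 22382, 36409 and 31157. Every adult library lay above every younger library of either class, and the E18.5 and P7 libraries overlapped. The adult level was 2.66-fold that of P7 in mononucleated cells (log2 fold change 1.41 ± 0.47 SE, limma adjusted p = 0.0235) and 2.72-fold in binucleated cells (1.45 ± 0.47, limma adjusted p = 0.0229). Against E18.5 it was 2.52-fold and 2.35-fold (limma adjusted p = 0.0243 and 0.0334). These 4 calls were fragile. In mononucleated cells both were lost when adult mononucleated replicate 2 was left out (limma adjusted p = 0.0789 against P7 and 0.0799 against E18.5) or 3 (0.0618 and 0.0608), the call against P7 without P7 mononucleated replicate 3 (0.11) and that against E18.5 without E18.5 mononucleated replicate 1 (0.13). In binucleated cells both were lost without adult binucleated replicate 2 (limma adjusted p = 0.0805 and 0.104) or 3 (0.0603 and 0.0765), the call against P7 without P7 binucleated replicate 3 (0.139; 1.84-fold) and that against E18.5 without E18.5 binucleated replicate 1 (0.15; 1.74-fold). Quantile normalization also ended all 4 (limma adjusted p from 0.143 to 0.45).

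Fosb, the closest relative of Fos among the 10, had its highest means at E18.5 instead. Its normalised counts in mononucleated cells were 251, 1322 and 1532 at E18.5, 333, 214 and 69.3 at P7, and 97, 426 and 259 in the adult. In binucleated cells they were 564, 1242 and 1781, then 411, 735 and 57.4, then 45.4, 174 and 136. The 3 adult binucleated libraries lay below the 3 of E18.5, and Fosb fell 10.4-fold between these ages (log2 fold change −3.39 ± 0.92 SE, limma adjusted p = 0.00494; 14.4-fold without E18.5 binucleated replicate 1, 0.00365). In mononucleated cells the difference was 3.61-fold in the same direction, with overlapping values and a limma adjusted p of 0.102, which became 0.0295 without E18.5 mononucleated replicate 1. P7 against E18.5 gave limma adjusted p = 0.109 in mononucleated and 0.093 in binucleated cells, and these became 0.0414 without E18.5 mononucleated replicate 1 and 0.0422 without P7 binucleated replicate 2. The mononucleated one was 0.0386 in a fit of its 2 groups alone. From P7 to the adult Fosb did not pass in binucleated cells (limma adjusted p = 0.282), but did so without P7 binucleated replicate 3 (0.0435, 5.35-fold lower in the adult). In mononucleated cells its mean was 205 at P7 and 261 in the adult, without passing (limma adjusted p = 0.78).

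Jun and Junb both rose with age, by different amounts. Jun, which can pair with itself or with Fos proteins, had 4631, 7434 and 7600 normalised counts at E18.5, 10155, 8220 and 5740 at P7 and 11486, 13472 and 14566 in the adult in mononucleated cells. Binucleated cells had 3581, 8151 and 8276, then 10013, 10923 and 6154, then 9700, 15721 and 17895. Adult libraries lay above those of E18.5 in both classes, 2.05-fold in mononucleated (limma adjusted p = 0.0148) and 2.24-fold in binucleated cells (limma adjusted p = 0.00656). The mononucleated call for Jun was lost when replicate 1 of that class at E18.5 was left out (limma adjusted p = 0.0789), and quantile normalization ended both (0.261 and 0.19). Adult against P7, Jun differed by 1.68-fold and 1.59-fold (limma adjusted p = 0.0846 and 0.126), and both comparisons passed without E18.5 binucleated replicate 1, which enters only the estimate of spread (0.0259 and 0.0442). The mononucleated comparison also passed in a fit of its 2 groups alone (limma adjusted p = 0.0112).

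Junb, which often restrains Jun, climbed at each step. In mononucleated cells it had 472, 1063 and 1334 normalised counts at E18.5, 2819, 2638 and 1607 at P7 and 7695, 8936 and 8595 in the adult. In binucleated cells it had 420, 940 and 1561, then 2878, 2668 and 1024, then 6933, 9793 and 9492. The lowest adult library of Junb thus stood more than 2-fold above the highest of P7. Adult against E18.5, Junb was 9.59-fold higher in mononucleated (log2 fold change 3.26 ± 0.46 SE, limma adjusted p = 1.75e-05) and 10.1-fold higher in binucleated cells (3.34 ± 0.46, limma adjusted p = 1.17e-05). Adult against P7, it was 3.67-fold and 4.34-fold higher (limma adjusted p = 0.00376 and 0.00173), and these 4 calls held in every alternative run. The earlier step from E18.5 to P7 passed narrowly, at 2.61-fold in mononucleated (limma adjusted p = 0.0469) and 2.34-fold in binucleated cells (0.0491). It was lost with the replicate block (limma adjusted p = 0.0516 and 0.0534), and in binucleated cells also in a fit of its 2 groups alone (0.179), after quantile normalization (0.0617) and with voom on the recovered counts (0.0552). In mononucleated cells 12 of the 18 fits that leave out 1 library lost it (limma adjusted p from 0.0513 to 0.213): those without E18.5 mononucleated replicates 1 or 2, E18.5 binucleated replicate 2, P7 mononucleated replicates 1 or 2, P7 binucleated replicate 2, or any adult library. In binucleated cells 14 did (limma adjusted p from 0.0516 to 0.203): those without E18.5 binucleated replicates 1 or 2, E18.5 mononucleated replicate 2, any P7 library but binucleated replicate 3, or any adult library.

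The Egr genes, which code for zinc finger activators, had their highest values in the adult. Egr1 had 3204, 6293 and 6933 normalised counts at E18.5, 6546, 5389 and 3942 at P7 and 20925, 26121 and 29071 in the adult in mononucleated cells. The binucleated values were 1846, 6945 and 8487, then 5615, 5465 and 2878, then 18223, 30179 and 30088. No adult library overlapped a younger one, while E18.5 and P7 overlapped and had almost equal means. The adult rise of Egr1 was 4.85-fold from P7 (log2 fold change 2.28 ± 0.46 SE, limma adjusted p = 0.000785) and 4.84-fold from E18.5 (limma adjusted p = 0.000526) in mononucleated cells. In binucleated cells it was 5.72-fold (limma adjusted p = 0.00038) and 5.34-fold (limma adjusted p = 0.000275; 3.32-fold and 0.000366 without E18.5 binucleated replicate 1), and all 4 calls held in every alternative run.

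Egr2 was scarce before the adult. Its normalised counts in mononucleated cells were 4.93, 40.4 and 59.8 at E18.5, 17.5, 22.4 and 28.0 at P7 and 126, 291 and 265 in the adult. In binucleated cells they were 4.89, 93.6 and 80.8, then 5.82, 5.96 and 6.5, then 186, 412 and 275. All adult values again lay above all younger ones, and the E18.5 values spread over more than 10-fold within a group. Adult against P7, Egr2 was 9.42-fold higher in mononucleated (log2 fold change 3.24 ± 0.93 SE, limma adjusted p = 0.0101) and 41.8-fold higher in binucleated cells (95% confidence interval 10.7 to 163, limma adjusted p = 0.000233). Against E18.5 it was 9.06-fold and 7.97-fold higher (limma adjusted p = 0.00847 and 0.0112). The calls against E18.5 were lost without E18.5 mononucleated replicate 1 in mononucleated cells (limma adjusted p = 0.0581) and without E18.5 binucleated replicate 1 in binucleated cells (0.0583, 3.16-fold), where a fit of the 2 groups alone lost it too (0.0568). From E18.5 to P7, Egr2 in binucleated cells was 5.25-fold lower without passing (limma adjusted p = 0.0547). It passed with the replicate block (limma adjusted p = 0.0158), after quantile normalization (0.0276) and without E18.5 binucleated replicate 1 (0.000788, 13.2-fold), E18.5 mononucleated replicate 1 (0.0276) or E18.5 mononucleated replicate 3 (0.0498).

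Atf3 and Ier2 also stood highest in the adult, with very different spreads. Atf3, a stress-induced leucine zipper factor that can repress its own targets, had 1061, 6385 and 5944 normalised counts at E18.5, 3409, 3090 and 2438 at P7 and 9306, 19533 and 17623 in the adult in mononucleated cells. In binucleated cells it had 1118, 6282 and 8256, then 3629, 3643 and 1732, then 9783, 23239 and 18735. Replicate 1 at E18.5 held less than any P7 library, and all adult values were the highest. The adult level of Atf3 was 5-fold that of P7 in mononucleated (limma adjusted p = 0.0134; 0.0503 without adult mononucleated replicate 2) and 5.71-fold in binucleated cells (limma adjusted p = 0.00935). Against E18.5 it was 4.3-fold and 4.19-fold (limma adjusted p = 0.0179 and 0.0183). Both of these were lost after quantile normalization (limma adjusted p = 0.0726 and 0.105), and the second also in a fit of its 2 groups alone (0.0599). The first was lost without E18.5 mononucleated replicate 1 (0.12, 2.39-fold) or adult mononucleated replicates 2 (0.0616) or 3 (0.0539), the second without E18.5 binucleated replicate 1 (0.105, 2.25-fold) or adult binucleated replicates 2 (0.0677) or 3 (0.0507).

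Ier2, a small nuclear protein named for its immediate early response, was the steadiest of the 10 within groups. Mononucleated cells had 575, 1179 and 1042 normalised counts at E18.5, 1339, 1204 and 1023 at P7 and 5482, 6561 and 7420 in the adult. Binucleated cells had 832, 1242 and 1369, then 1128, 1227 and 785, then 5210, 7363 and 7654. The lowest adult library stood well above the highest younger one. The adult rise of Ier2 was 5.45-fold from P7 in mononucleated (log2 fold change 2.45 ± 0.26 SE, limma adjusted p = 1.52e-06) and 6.46-fold in binucleated cells (2.69 ± 0.26, limma adjusted p = 6.45e-07). Against E18.5 it was 7.23-fold and 5.92-fold (limma adjusted p = 1.3e-07 and 3.85e-07), the smallest adjusted p-values among the 10 genes, and all 4 calls held in every alternative run.

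The Krüppel-like factors, like Fosb, had their highest means at E18.5. Klf4, better known as a pluripotency factor and an early gene in vessels, had 48.4, 320 and 495 normalised counts at E18.5, 101, 99.4 and 54.8 at P7 and 86.5, 151 and 126 in the adult in mononucleated cells. In binucleated cells it had 333, 322 and 485, then 86.3, 149 and 39.0, then 76.1, 113 and 83.9. In binucleated cells every E18.5 library lay above every later one, and Klf4 fell 4.67-fold to P7 (limma adjusted p = 0.0136) and stayed 4.14-fold below E18.5 in the adult (limma adjusted p = 0.0121). The fall to P7 was lost without P7 binucleated replicate 3 (limma adjusted p = 0.075). In mononucleated cells the low E18.5 replicate 1 made the groups overlap, and Klf4 did not pass (limma adjusted p = 0.2 at P7 and 0.353 in the adult). Without that library both comparisons passed, 4.82-fold lower at P7 (0.00351) and 3.36-fold lower in the adult (0.00559).

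Klf6, induced in many injured tissues, fell and then rose. Its normalised counts were 1535, 2988 and 3956 at E18.5, 737, 762 and 692 at P7 and 1441, 2004 and 2374 in the adult in mononucleated cells. In binucleated cells they were 1890, 3039 and 4360, then 956, 863 and 619, then 1404, 2354 and 2285. All 6 P7 libraries lay below the other 12. From E18.5 to P7, Klf6 fell 3.6-fold in mononucleated (log2 fold change −1.85 ± 0.34 SE, limma adjusted p = 0.000942) and 3.66-fold in binucleated cells (limma adjusted p = 0.000459). From P7 to the adult it rose 2.6-fold and 2.45-fold (limma adjusted p = 0.00343 and 0.00604), and these 4 calls held in every alternative run. Adult against E18.5 it was 1.38-fold and 1.49-fold lower without passing (limma adjusted p = 0.256 and 0.153), but it passed without replicate 1 of E18.5 in the same class (0.0367 and 0.0281).

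**Figure D2:**
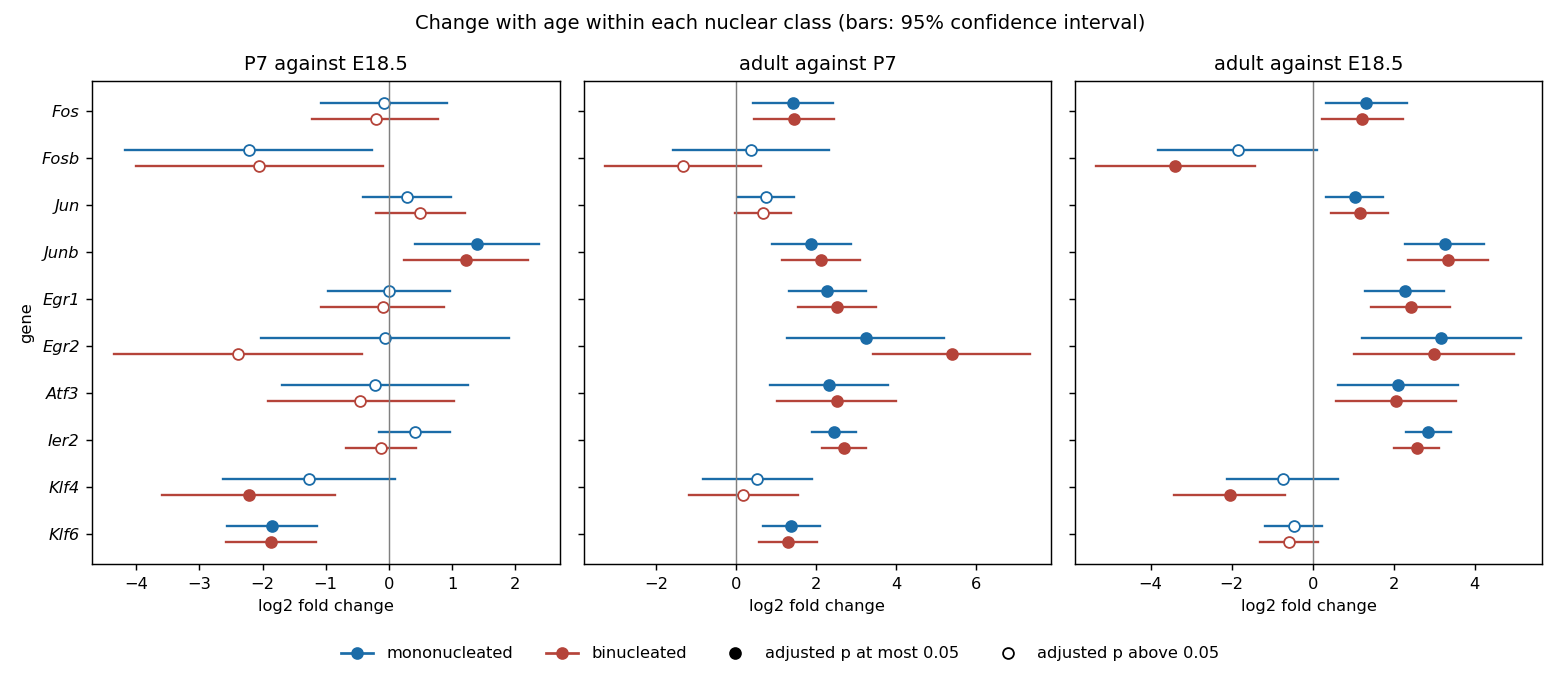
Log2 fold changes of the 10 genes between ages (x axis) in mononucleated and binucleated cells, with 95% confidence intervals of the limma fit; filled points have an adjusted p of at most 0.05. In the adult against P7, 7 genes pass in each class and all 7 are higher, while from E18.5 to P7 only Junb is higher among those that pass.

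Counted over the 10 genes, 7 rose from P7 to the adult in mononucleated cells and 0 fell (limma adjusted p at most 0.05), where 19.1% of all genes rose, and 41.4% passed in either direction. In binucleated cells it was the same 7, where 17.3% of all genes rose and 37.0% passed: Fos, Junb, Egr1, Egr2, Atf3, Ier2 and Klf6. The median log2 fold changes over all 10 genes were 1.64 and 1.78, against −0.01 and −0.03 over all genes. Values did not overlap for 8 of the 10 in mononucleated cells, all higher in the adult (29.1% of all genes), and for 7 in binucleated cells (29.6%). From E18.5 to the adult, 7 of 10 rose in mononucleated cells (26.2% of all genes; 53.8% in either direction). In binucleated cells 7 rose (28.3% of all genes) and 2, Fosb and Klf4, fell (29.4%), where 57.7% passed in either direction. Between E18.5 and P7, 1 rose and 1 fell in mononucleated cells, where 10.7% and 7.84% of all genes did. In binucleated cells 1 rose and 2 fell, where 18.2% and 17.7% did. Without E18.5 binucleated replicate 1, the adult folds against E18.5 in binucleated cells were 1.71 for Jun, 7.11 for Junb and 5.1 for Ier2, and Klf4 was 4.38-fold lower (limma adjusted p = 0.033, 3.37e-05, 1.17e-06 and 0.0183). The comparisons share groups, so they are not independent of one another.

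Markers of other cells moved between the ages as well, and their part in these results was not tested. Summed endothelial markers ran from 338 to 607 normalised counts in P7 libraries and from 1932 to 2654 in the adult. Of the 14 endothelial markers 11 rose and 0 fell between these ages in each class. Of all genes 19.1% rose in mononucleated and 17.3% in binucleated cells. The median log2 fold changes of these markers were 2.82 and 3.11. Of 9 mural markers 3 rose and 4 fell in mononucleated cells, and 3 rose and 3 fell in binucleated cells. Summed fibroblast markers ran from 4342 to 7558 at P7 and from 2099 to 4266 in the adult, but that sum is mostly Gsn, which fell from a mean of 4260 to 1378 in mononucleated and from 3684 to 1091 in binucleated cells (limma adjusted p = 3.08e-05 and 1.81e-05). Of the 12 fibroblast markers 3 rose and 2 fell in mononucleated cells, where 19.1% and 22.3% of all genes did (median log2 fold change 0.81). In binucleated cells 5 rose and 2 fell, where 17.3% and 19.7% of all genes did (median 1.17). Dcn was 7.73-fold and 10.3-fold higher in the adult (limma adjusted p = 0.000232 and 8.06e-05). Postn was 5.76-fold and 10.2-fold lower (limma adjusted p = 0.000127 and 9.22e-06). Leukocyte marker sums in mononucleated cells ran from 289 to 498 at P7 and from 248 to 333 in the adult. In binucleated cells they ran from 45.3 to 92.0 and from 193 to 217. The mononucleated sum is mostly Lyz2, which fell from a mean of 374 to 156 (limma adjusted p = 0.0272). The other 5 leukocyte markers rose there, where 19.1% of all genes did, and the median log2 fold change of the 6 was 5.04. They rose from few counts, with Laptm5 and C1qb at 0 in all 3 P7 mononucleated libraries. In binucleated cells 4 of 6 rose and 0 fell, where 17.3% and 19.7% of all genes did (median 2.44). At E18.5 the binucleated libraries had more endothelial and leukocyte marker counts (1491 to 2938 and 276 to 749) than the mononucleated ones (467 to 772 and 45.6 to 60.7). Laptm5, C1qb and C1qc were at 0 in all 3 mononucleated libraries of that age. Fibroblast marker sums at E18.5 were 29157 and 29492 in binucleated replicates 2 and 3. Binucleated replicate 1 had 13595, within the mononucleated range of 13176 to 14528. Gsn dominates these sums too, with E18.5 means of 12208 in mononucleated and 9898 in binucleated cells. The sum of replicate 1 thus does not show whether its other fibroblast markers were at the mononucleated level. Of the 12 fibroblast markers 6 were higher in binucleated cells at E18.5 and 0 lower (median log2 difference 3.11). Of all 12048 genes 89 were higher and 8 lower.

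None of the 10 genes passed the test between binucleated and mononucleated cells at any age. At E18.5, 0 of 10 passed, where 0.805% of all genes did. At P7, 0 of 10 passed, where 2.12% did, and in the adult 0 of 10, where 0.0913% did. The number with an unadjusted limma p under 0.05 was also 0 of 10 at each age without a block, and 1 at each age with the replicate block within age: Ier2 at E18.5, Egr2 at P7 and Fosb in the adult. The median log2 difference, binucleated minus mononucleated, was 0.17 at E18.5, −0.07 at P7 and 0.04 in the adult, against −0.01, 0.02 and 0 over all genes. How small a difference could be seen depended on the gene and on whether same-numbered libraries were compared with each other. For Ier2 in the adult the 95% confidence interval of the ratio of binucleated to mononucleated cells ran from 0.703 to 1.52 without a block and from 0.852 to 1.25 with the replicate block within age. For Fos the limits were 0.486 and 1.93, and 0.771 and 1.21 with that block, and for Egr1 0.517 and 1.99, and 0.758 and 1.36. Fosb in the adult was lower in binucleated cells in all 3 same-numbered pairs, by 1.09, 1.29 and 0.93 on the log2 scale. Its ratio was 0.466, with limits of 0.12 and 1.81 without a block and of 0.273 and 0.797 with the block within age (limma adjusted p = 0.813). With blocks only at P7 and in the adult the limits for Fosb were 0.177 and 1.23. Klf4 was lower in all 3 adult pairs as well (0.18, 0.42 and 0.58 on the log2 scale), Fos by at most 0.07, and Egr2 and Atf3 were higher in all 3. All 3 adult pairs had the same sign for 23.2% of all genes. Neither comparison of the class difference between ages (P7 with E18.5, adult with P7) passed for any of the 10, where 2.33% and 0.208% of all genes passed, and the number with an unadjusted p under 0.05 was again 0 in both.

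**Figure D3:**
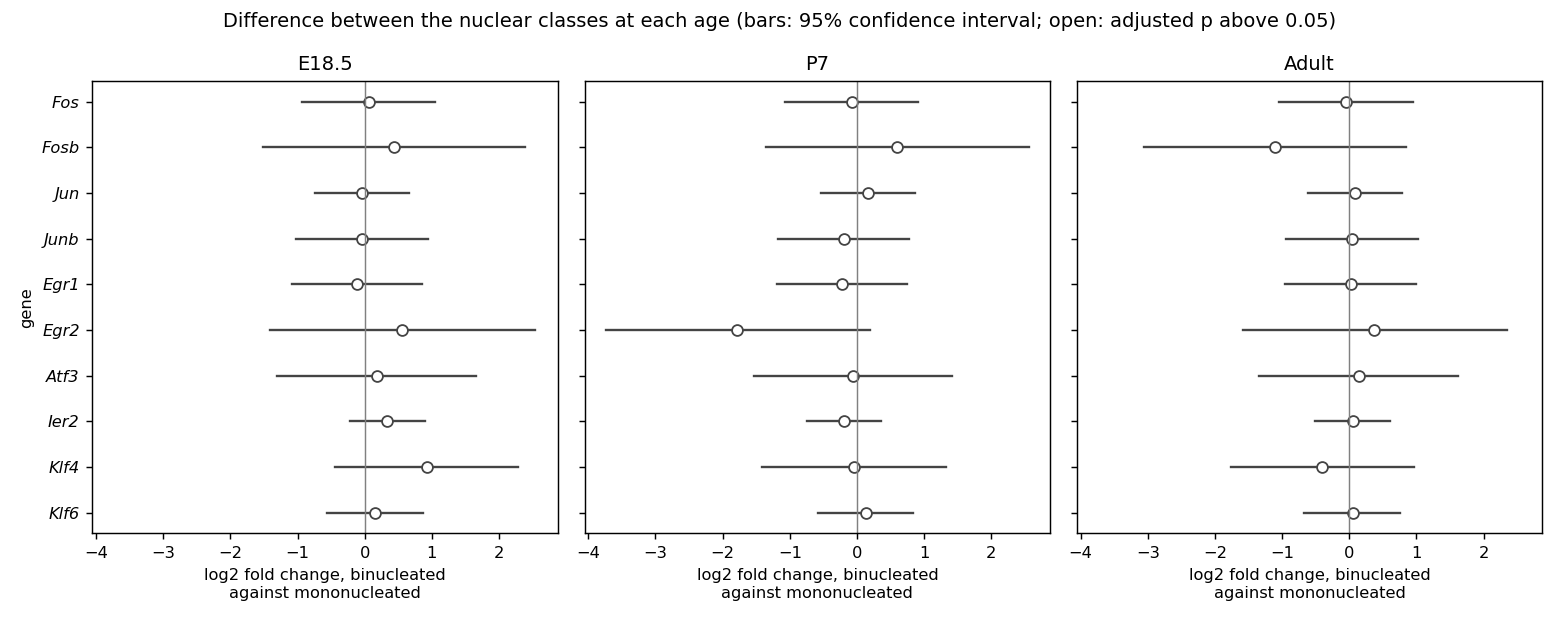
Log2 fold change of binucleated against mononucleated cells for the 10 genes at each age, with 95% confidence intervals of the limma fit. All 30 points are open, with an adjusted p above 0.05, and the widest intervals belong to Fosb and Egr2.

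Egr2 at P7 came nearest to a class difference. The binucleated libraries held 5.82, 5.96 and 6.5 normalised counts and 17 counts in all, the mononucleated ones 17.5, 22.4 and 28.0 and 71 counts in all. It was the only 1 of the 10 whose classes did not overlap at any age, lower in binucleated cells, as for 14.7% of all genes at P7. The log2 fold change was −1.78 ± 0.93 SE (limma adjusted p = 0.595), and the deposited offset of 0.5 counts shrinks a ratio at such counts. That SE comes from the spread shared over all 6 groups, which for Egr2 was widest at E18.5. Its SD on the log2 scale was 1.88 in mononucleated and 2.31 in binucleated cells at E18.5, against 0.33 and 0.08 at P7. With same-numbered libraries as a block within each age the limma adjusted p was 0.0182. It was 0.333 with 1 block per number over all ages, 0.732 with blocks only at P7 and in the adult, where the numbers paired, and 0.059 in a fit of the P7 libraries alone. The difference between the P7 and E18.5 class effects of Egr2 (log2 −2.34, limma adjusted p = 0.437) likewise passed only with the block within age (0.0284) and without E18.5 binucleated replicate 1 (0.0443, log2 −3.67).

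The widest differences within an age followed the replicate number, not the class. At E18.5, replicate 1 had the lowest value of all 10 genes in mononucleated cells and of 9 in binucleated cells, so 9 were lowest in the same number in both classes. Klf4 was the exception. At P7 replicate 3 was lowest in both classes for 9 genes, all but Egr2, which was lowest in replicate 1 of both. In the adult replicate 1 was lowest in both classes for all 10. For comparison, some number was lowest in both classes for 42.6% of all genes at E18.5, 37.3% at P7 and 48.0% in the adult. At all 3 ages this held for 9 of the 10 genes and for 7.86% of all genes. Egr2 is among these 9, but its P7 binucleated libraries held 6, 5 and 6 recovered counts, too few to rank them.

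Single libraries show the size of this pattern. In E18.5 replicate 1 the 10 genes lay a median of 0.84 below their group mean on the log2 scale in mononucleated and 0.9 below in binucleated cells, while the median over all genes deviated by 0.01 and −0.08. In P7 replicate 3 the medians were −0.42 and −0.67, and in adult replicate 1 they were −0.38 and −0.48, where all genes had medians between −0.01 and 0. Atf3 at E18.5 gives an example, with 1061 normalised counts in mononucleated and 1118 in binucleated replicate 1 against 5944 to 8256 in the other 4 libraries. Fosb at P7 is another, with 69.3 and 57.4 in replicate 3 against 214 to 735 elsewhere. Fos in the adult differed less, with 23497 and 22382 in replicate 1 against 31157 to 37112.

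**Figure D4:**
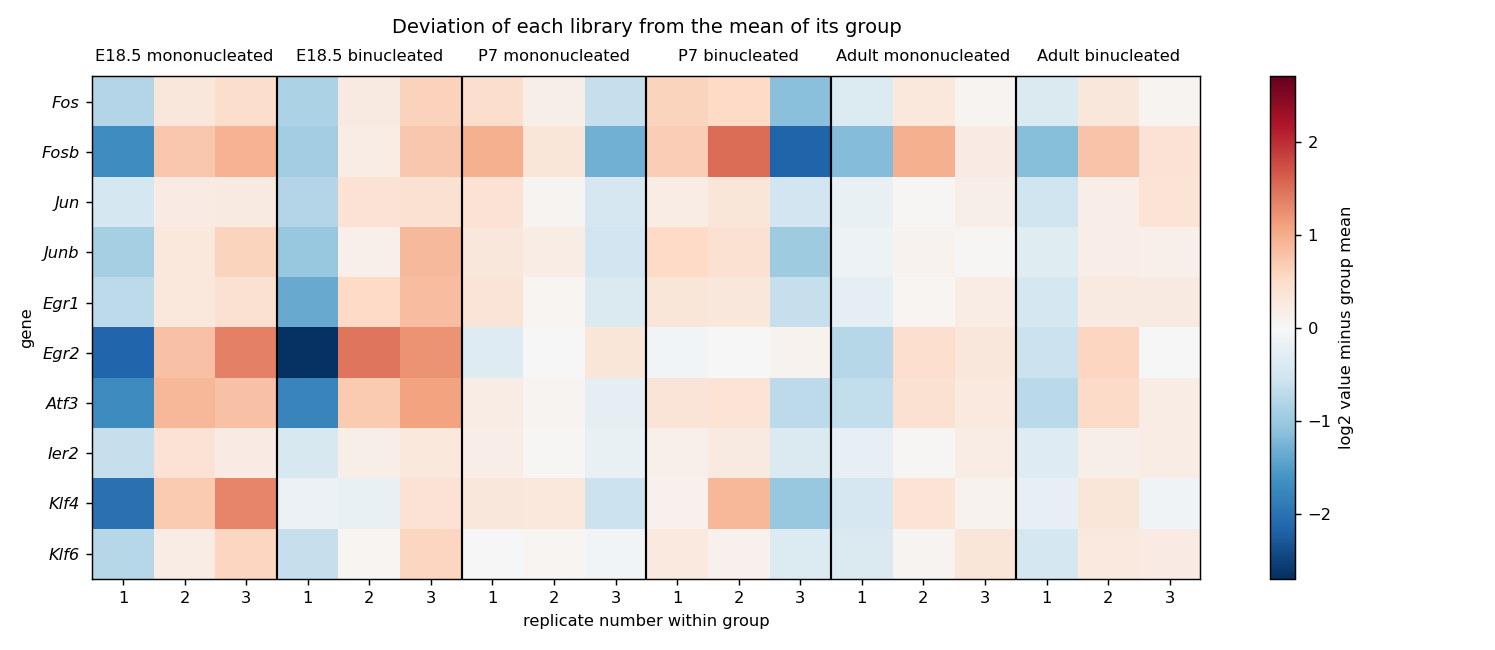
Deviation of each library from the mean of its group on the log2 scale, for the 10 genes (rows) and 18 libraries (columns, by group and replicate number). Blue columns recur at replicate 1 of E18.5, replicate 3 of P7 and replicate 1 of the adult in both classes, with medians from −0.38 to −0.9.

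The replicate number was tested with a limma F test of 6 terms within the ages, added after these values were seen, over all 12048 genes. It passed for 8 of the 10 genes, where 1.22% of all genes (147) passed. Atf3 had the smallest limma adjusted p (0.000807), followed by Fos (0.00798), Junb (0.00932), Egr2 (0.0126), Fosb (0.0175), Klf6 (0.019), Egr1 (0.0274) and Jun (0.0379). Ier2 (0.0612) and Klf4 (0.421) did not pass. Without E18.5 binucleated replicate 1 all 10 passed, where 4.13% of all genes did, and without E18.5 mononucleated replicate 1 all 10 passed, where 40.3% did. In both of these the E18.5 term for replicate 1 rests on its 1 remaining library. With P7 and adult libraries only, 3 passed, Fos (limma adjusted p = 0.017), Fosb (0.0272) and Atf3 (0.0283), where 0.822% of all genes did. The count fell to 5 without E18.5 binucleated replicate 3, where 0.739% of all genes passed. It was also 5 without any P7 library but mononucleated replicate 3, where 0.39% to 0.581% of all genes passed. Without any adult library it was 3 or 4, where 0.332% to 0.523% of all genes passed. Calls thus became fewer over all genes as well. Within groups the pooled SD of the 10 genes on the log2 scale had a median of 0.65, against 0.31 over all genes. It ran from 0.35 for Ier2 through 0.66 for Fos and 0.98 for Atf3 to 1.27 for Egr2 and 1.3 for Fosb.

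Whether a replicate number stands for a shared animal, day or digestion is not given in the labels. Markers of other cell types were read in the same test. None of the cardiomyocyte (14), fibroblast (12), endothelial (14), leukocyte (6), mural (9) or epicardial (6) markers passed, and with an unadjusted p under 0.05 there were 2, 2, 2, 1, 4 and 0. Without E18.5 binucleated replicate 1, 2, 1, 1, 0, 0 and 0 passed in that order, where 4.13% of all genes did. Without E18.5 mononucleated replicate 1, where 40.3% of all genes passed, it was 11, 3, 1, 1, 4 and 0. Of the 5 erythroid markers 2 passed, Hba-a1 (limma adjusted p = 0.0158) and Hbb-bs (0.024). Their part in the pattern was not tested. In the adult, summed erythroid markers were 3.16 and 1.14 normalised counts in replicate 1 against 24.3 to 215 in the others. At P7 the lowest erythroid sum, 101, was in binucleated replicate 3, but mononucleated replicate 3 had 299 against 230 in replicate 2, and at E18.5 binucleated replicate 1 had the highest sum, 3397.

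Other early genes were put through the same test, in which 1.22% of all genes passed. Of 8 further AP-1 relatives 0 passed the test of replicate number (1 at an unadjusted p under 0.05), and of 25 upstream kinases and factors 0 (3 unadjusted). Of 18 other early transcription factors 4 passed: Nr4a1, Myc, Klf10 and Irf1. Of 22 feedback and RNA decay genes, which end the early response, 5 passed: Socs3 (limma adjusted p = 0.00559), Dusp5, Gadd45b, Dusp1 and Zfp36. Of 20 secreted and cytoplasmic early genes 4 passed: Sgk1 (limma adjusted p = 0.000807), Ppp1r15a, Plk2 and Ccn1. Of 18 heat shock genes only Dnajb1, an Hsp40 chaperone, passed (limma adjusted p = 0.0266). These counts moved with the libraries used. The order here is AP-1 relatives, upstream genes, other transcription factors, feedback genes, secreted and cytoplasmic genes and heat shock genes. Without E18.5 binucleated replicate 1, 2, 2, 8, 10, 5 and 2 passed, where 4.13% of all genes did. Without E18.5 mononucleated replicate 1, 4, 9, 13, 16, 13 and 10 passed, where 40.3% of all genes did. The upstream genes, 9 of 25, lay below that share. With P7 and adult libraries only, 0, 0, 1, 1, 0 and 0 passed, where 0.822% of all genes did. Leaving out any 1 P7 or adult library gave 1 or 2 of the other transcription factors and 1 or 2 of the feedback genes. In those fits 0.332% to 0.581% of all genes passed. Sgk1, a kinase induced by serum and glucocorticoids, had 49.3 and 85.6 normalised counts in replicate 1 of E18.5 mononucleated and binucleated cells against 479 to 834 in the other 4 libraries. Socs3, an inhibitor of cytokine signalling, had 100 and 127 there against 359 to 973.

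**Figure D5:**
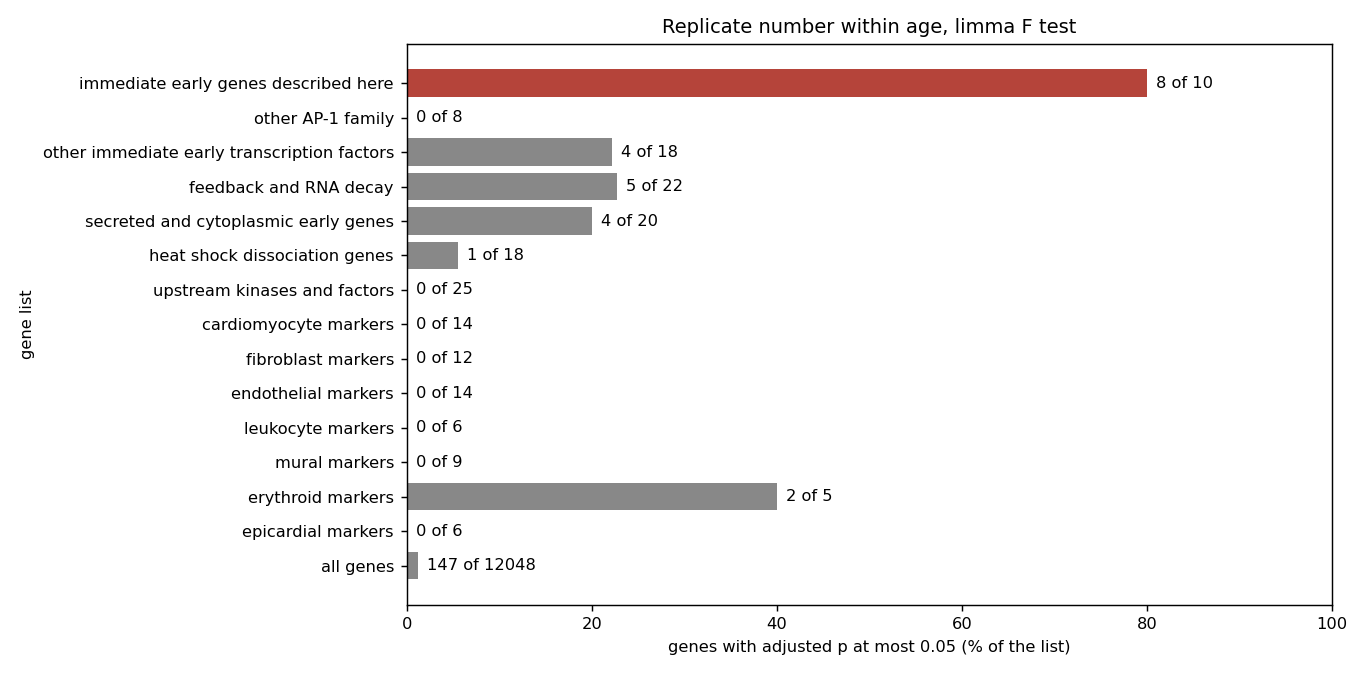
Share of each gene list (%) that passed the limma F test of replicate number within age, with the number of genes beside each bar. The 10 genes described here stand at 8 of 10, the other early gene lists between 0 of 8 and 5 of 22, and all genes at 147 of 12048.

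The same lists were read for age. From P7 to the adult in mononucleated cells, 6 of 8 AP-1 relatives rose and 0 fell, among them Maff, a small Maf protein (8.48-fold, limma adjusted p = 2.26e-06). Of 18 other early transcription factors 13 rose and 1, Nab2, a corepressor of Egr proteins, fell (1.76-fold, limma adjusted p = 0.00835; 0.334 after quantile normalization). Of the feedback genes 11 of 22 rose and 1, Btg1, fell (1.37-fold, limma adjusted p = 0.0477), a call lost with the replicate block (0.063) and in 11 of 18 fits that leave out 1 library (0.0522 to 0.195): all but those without P7 binucleated replicates 1 or 3, adult mononucleated replicate 3, adult binucleated replicate 1 or an E18.5 binucleated library. The former included Zfp36, which marks AU-rich early transcripts for decay (8.13-fold, limma adjusted p = 7.31e-06) and Gadd45a (5.14-fold). Of the secreted and cytoplasmic genes 14 of 20 rose and 0 fell, among them Ccn1, a matrix signalling protein (6.08-fold, limma adjusted p = 8.12e-05). Of all genes, 19.1% rose and 22.3% fell in this comparison. These lists had median log2 fold changes of 0.68, 1.33, 0.92 and 1.21, against −0.01 over all genes. In binucleated cells 5 of 8, 11 of 18, 12 of 22 and 15 of 20 rose, and 0 fell in each. There 17.3% of all genes rose and 19.7% fell.

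From P7 to the adult, calls among the 25 upstream kinases and factors, which drive early genes, were no more frequent than among all genes. That holds for both directions together, where 41.4% of all genes passed in mononucleated and 37.0% in binucleated cells. Rises alone were somewhat more frequent in the list. From P7 to the adult in mononucleated cells 7 rose, where 19.1% of all genes did, and 2, Mapk3 and Map2k6, fell, where 22.3% did (median log2 fold change 0.07). Map2k3 rose 2.43-fold (limma adjusted p = 9.63e-09) and Mapk14, which is p38 alpha, 2.17-fold (limma adjusted p = 8.72e-06). Mapk3, which is Erk1, fell 2.46-fold (limma adjusted p = 6.76e-05) and Map2k6 fell 2.32-fold (limma adjusted p = 0.00078). In binucleated cells 5 rose and 3 fell, where 17.3% and 19.7% of all genes did, Creb1 besides the other two, a call lost without P7 binucleated replicates 2 (limma adjusted p = 0.0789) or 3 (0.0612) or adult binucleated replicates 2 (0.0749) or 3 (0.0812). In the same comparison Map2k3, Mapk14 and Mapk3 moved by 2.48-fold, 2.04-fold and 2.59-fold in the same directions (limma adjusted p = 9.06e-09, 2.63e-05 and 4.72e-05). Map2k6 fell 2.26-fold there (limma adjusted p = 0.00114).

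Heat shock genes, which digestion is also known to induce, were read likewise. From P7 to the adult 12 of 18 rose and 0 fell in mononucleated cells (19.1% and 22.3% of all genes), led by Hsp90ab1 (2.02-fold, limma adjusted p = 2.42e-07; 1.33-fold after quantile normalization) and Bag3, a co-chaperone of muscle (3.13-fold, limma adjusted p = 9.86e-07). In binucleated cells 12 rose and 2 fell (17.3% and 19.7% of all genes): Hsf2, a heat shock factor (1.7-fold, limma adjusted p = 0.0387), and Hspa1b (1.97-fold, 0.047). These 2 falls were fragile. That of Hsf2 was lost in 7 of 23 alternatives (limma adjusted p up to 0.227), among them those without P7 binucleated replicate 2 or adult binucleated replicates 2 or 3. That of Hspa1b was lost in 15 of 23 (up to 0.235), among them those without P7 binucleated replicates 2 or 3 or any adult binucleated library. From E18.5 to the adult in mononucleated cells 10 of the heat shock genes rose and 5 fell, where 26.2% and 27.7% of all genes did. The inducible Hsp70 gene Hspa1b fell 6.22-fold (limma adjusted p = 1.45e-05), Hspa1a 2.6-fold (limma adjusted p = 0.00324) and Hsp90aa1 1.73-fold (limma adjusted p = 8.21e-05), over the same ages at which Ier2, Junb and Egr1 rose. Hspa1a and Hspa1b are near-identical copies, so reads may have been divided between them. In binucleated cells 9 rose and 5 fell (28.3% and 29.4% of all genes), Hspa1b 4.83-fold (limma adjusted p = 5.83e-05).

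Of all these lists, genes that differed between classes were few. Ets1, a transcription factor abundant in endothelium and lymphocytes, was 5.91-fold higher in binucleated cells at E18.5 (limma adjusted p = 0.0082; 0.236 in a fit of the E18.5 libraries alone), where the endothelial and leukocyte markers were higher too. Hbegf, a growth factor of the EGF family, was 2.05-fold lower in binucleated cells at P7 (576 against 1182 normalised counts on average, limma adjusted p = 0.000963). No gene of these lists passed in the adult, and 0 had an unadjusted limma p under 0.05 there.

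The genes with the most similar profile over the 18 libraries were sought by the root mean square difference of centred log2 values. Nearest to the mean of the 10, among genes outside them, were Dnajb1 (0.339), the chromatin reader Brd2 (0.38), the flow-responsive factor Klf2 (0.38), the antiproliferative gene Btg2 (0.414) and the clock-linked repressor Bhlhe41 (0.428), where the median gene stood at 1.039. Dnajb1 had means of 1482 normalised counts in P7 binucleated and 5311 in adult binucleated cells, and its lowest values were in the same replicate numbers as those of Fos at each age. Nearest to single genes were Klf2 for Fos (0.304), Cd99l2 for Jun (0.278), Gadd45a for Junb (0.389), Ccn1 for Egr1 (0.225), Csrnp1 for Egr2 (0.923), Egr1 for Atf3 (0.39), Nr1d1 for Ier2 (0.273) and Adm for Klf6 (0.276). Fosb was nearest to Klf4 (0.84), and Klf4 to Elk3 (0.656). The farthest nearest genes were thus those of Egr2, Fosb and Klf4.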

How the data were processed

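RNA of sorted cardiomyocytes was measured in 18 libraries, 3 per group. Per the labels' protocols, cells were sorted into Trizol-LS and libraries were made with TruSeq stranded mRNA and SMARTer amplification kits. The submitters' processing notes name STAR, limma and build mm9, but no read counter. Each library's deposited table holds log2 values of the authors, of the form log2 of a whole count plus 0.5 times a library factor. The counts recovered from them were whole within 9.6e-09 (100% within 0.001). Symbols matched 11927 identifiers through GENCODE M21, and 121 stayed unnamed. Counts without molecular identifiers can repeat molecules.

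limma 3.58.1 (R 4.3.3) was fitted to the log2 values with 6 group means, 12 residual degrees of freedom and an intensity trend. Tests were two-sided, with Benjamini and Hochberg adjustment over 12048 genes per comparison and a threshold of 0.05. A filter of 10 counts in 3 libraries removed no gene. Tests were checked on simulated counts. Alternatives were replicate blocks, leaving out each library, fits of the compared groups alone, quantile normalization and voom on the recovered counts. Same-numbered libraries deviated together at P7 (correlations over genes 0.18, 0.19 and 0.24) and in the adult (0.26, 0.26 and 0.33), so the numbers pair there from the data and not from the labels. At E18.5 they were 0.09, 0.05 and 0.16. Of the other lists, up to 3 genes per comparison and direction with the smallest adjusted p may be named, and for the replicate number those that passed. The genes and lists were chosen with earlier results of these data known.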

Additional observations from a re-analysis of the deposited data

How the results depend on the processing

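Of the 35 age differences called among the 10 genes, 21 were called in every alternative run and 0 changed sign. Of the 75 uncalled differences, 49 changed sign in at least 1 alternative, so their directions are not established. With the replicate block within age, 1 gene (Egr2) passed between classes at P7 against 0 without it, and likewise 1 against 0 for the class difference at P7 against that at E18.5. With 1 replicate block per number the count for P7 against E18.5 in mononucleated cells was 1 against 2, and the block lost no call among the 10 genes other than those of Junb. Leaving out 1 library gave 1 to 3 there and 0 to 1 for the class difference at P7 against E18.5. Quantile normalization left 4 of 7 calls between adult and E18.5 mononucleated cells and moved the median of all genes by at most 0.054 on the log2 scale. For the replicate number, P7 and adult libraries alone gave 3 genes against 8, where 0.822% of all genes passed against 1.22%. Leaving out 1 library gave 3 to 10, where 0.332% to 40.3% of all genes passed. In such a fit the remaining library of a pair alone sets its block term. Every other count of called genes among the 10 stayed within 1.5 times its value, while the counts of the other gene lists in the test of replicate number did not. Of 29 calls named for genes outside the 10 in comparisons of age or class, 23 were made in every alternative and 0 changed sign. Those of Lyz2 and Postn are not among the 29 and were not followed there. At the few counts of Egr2 (17 and 71 in the P7 classes), depth limits what can be told apart. The filter removed no gene and so says nothing about stability.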

Other observations

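Not every early gene was low in replicate 3 at P7. Nr4a1, a nuclear receptor of the early response, passed the test of replicate number (limma adjusted p = 0.00365) and was highest there, with 2518 normalised counts in mononucleated and 2995 in binucleated replicate 3 against 1746 to 2339 in the other 4 libraries. At E18.5 it had 383 and 333 in replicate 1 against 1108 to 1894. Dusp5, a phosphatase that switches off Erk in the nucleus (limma adjusted p = 0.0175), was also highest in P7 replicate 3, at 701 and 675 against 420 to 529, and lowest in E18.5 replicate 1, at 150 and 133 against 268 to 491. Klf10 went with Fos instead, at 665 and 572 in P7 replicate 3 against 1186 to 1846 (limma adjusted p = 0.0234). These genes were picked after their values were seen.

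Plk2 and Ppp1r15a, both stress-induced, were low in E18.5 replicate 1 but did not vary much at P7. Plk2 had 2023 and 1366 normalised counts in E18.5 replicate 1 against 3620 to 4257 in the other 4 libraries, and 1025 to 1238 in the 6 libraries of P7. Ppp1r15a, which restores translation after stress, had 1298 and 886 against 2932 to 3397, and 825 to 1103 at P7. Myc, a growth regulator, had 524 and 387 in adult replicate 1 against 1074 to 1671 in the other adult libraries.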
